A study of Mus musculus with 8 samples.

Results

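The Dlk1-Meg3 locus is an imprinted domain on mouse chromosome 12. Its 5 genes described here, Dlk1, Meg3, Rian, Mirg and Dio3, were found by symbol among the 54146 genes measured, and all 5 were present in every library. They were listed because they belong to the domain. Rian was chosen by its measured values, which were lower in GSTM1 KD than in control KD astrocytes in both states, so its knockdown differences are given below as a description with no test. The other 4 genes were taken for their position next to Rian. Meg3 and Dlk1 carry the adjusted p-value of the fit across all genes, while the differences of Mirg and Dio3, which have few counts, are also given without a test. Because Meg3, Rian and Mirg lie in 1 direction of transcription and neighbour each other, they are not independent observations of the domain.

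RNA-seq libraries were made from primary cortical astrocytes of C57BL/6 mouse pups, with 2 biological replicates in each of 4 groups. Unstimulated (basal) astrocytes with a control KD or a GSTM1 KD made up 2 of the groups, and the same cells given 50 ng/ml TNF-α for 6 h the other 2. All cells carried a lentiviral vector and had been selected with puromycin; control KD cells expressed a non-silencing short hairpin RNA and GSTM1 KD cells 1 against Gstm1, which encodes a glutathione S-transferase. The pups were 2 to 5 days old, the brains were pooled in culture, and before the RNA was taken, cells of the oligodendrocyte lineage and microglia were removed by shaking and microglia further depleted through CD11b. Such cultures hold neonatal astrocytes outside the brain, and every measurement is an average over the whole dish.

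In genomic imprinting, 1 parental copy of a gene is silenced according to the parent it came from. In this domain Dlk1, Rtl1 and Dio3 are transcribed mainly from the paternal chromosome, and the non-coding RNAs Meg3, Rian and Mirg from the maternal chromosome, under a differentially methylated region upstream of Meg3. Dlk1 encodes a transmembrane protein related to Notch ligands and known from immature and precursor cells. Meg3 is a nuclear long non-coding RNA, Rian is the host of many small nucleolar RNAs, and Mirg is the host of a large microRNA cluster. Dio3 encodes the type III deiodinase, which inactivates thyroid hormone. The non-coding RNAs are known for high levels in brain.

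In GRCm38 coordinates the members lie on the forward strand in the order Dlk1 (chr12:109452823-109463336), Meg3 (chr12:109541001-109571726), Rian (chr12:109603940-109661716), Mirg (chr12:109729764-109749460) and Dio3 (chr12:110279068-110281097). Their identifiers were ENSMUSG00000040856.17, ENSMUSG00000021268.17, ENSMUSG00000097451.10, ENSMUSG00000097391.8 and ENSMUSG00000075707.5. The start of Meg3 lies 88.2 kb after that of Dlk1 and 62.9 kb before that of Rian, 188.8 kb before that of Mirg and 738.1 kb before that of Dio3. Dlk1 and Dio3 are annotated as protein-coding genes, Meg3 and Mirg as long intergenic non-coding RNAs, and Rian as a processed transcript.

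The promoter windows of Meg3 and Rian are shown because both RNAs were lower in GSTM1 KD astrocytes. Each runs from 250 bases before to 50 bases after a RefSeq start in GRCm38.p6, forward strand, and capitals mark a searched motif on either strand.
Meg3, chr12:109540746-109541045: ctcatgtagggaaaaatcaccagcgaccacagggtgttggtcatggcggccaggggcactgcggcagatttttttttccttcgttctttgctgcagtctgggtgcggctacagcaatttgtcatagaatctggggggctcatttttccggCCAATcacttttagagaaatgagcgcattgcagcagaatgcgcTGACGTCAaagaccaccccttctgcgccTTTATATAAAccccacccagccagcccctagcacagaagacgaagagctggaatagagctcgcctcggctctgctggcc
Rian, chr12:109603695-109603994: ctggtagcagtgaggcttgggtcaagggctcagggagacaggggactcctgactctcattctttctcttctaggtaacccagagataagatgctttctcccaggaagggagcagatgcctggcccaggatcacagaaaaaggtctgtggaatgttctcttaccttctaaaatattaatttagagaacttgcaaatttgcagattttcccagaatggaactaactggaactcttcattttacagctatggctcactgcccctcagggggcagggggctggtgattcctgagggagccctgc
The letters searched were TGACGTCA (the cAMP response element), TATAAA (the TATA box), GGGCGG (a GC box), CCAAT (the CCAAT box), TGACTCA (the AP-1 element) and CACGTG (an E-box), on both strands. The Meg3 window held TGACGTCA beginning at -57, CCAAT at -100, and TATAAA at -25 on the forward and at -29 on the reverse strand, where the 2 matches overlap. TGACGTCA is held by 1.79% of 32851 RefSeq promoter windows of this length, TATAAA by 13.6% and CCAAT by 37.4%. The window had 13 CpG dinucleotides. The Rian window had no CpG and none of the 6 motifs. A 2nd RefSeq start of Meg3 had 1 CpG and none of the motifs, the Dlk1 window had 9 CpG and none, and the Mirg window had 1 CCAAT. The Dio3 window was the only 1 of these 6 with GGGCGG, which occurred 4 times beside TATAAA at -31, and it had 25 CpG, while 26.5% of all windows had 20 or more.

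These transcripts are also hosts of small RNAs. Within the spans of Meg3, Rian and Mirg, RefSeq places 3, 6 and 26 mature microRNAs on the same strand. Examples are printed with the seed (bases 2 to 8) in capitals, 1 from Meg3, 2 from Rian and 4 from Mirg, the last 4 including the only pair of mature microRNAs in Mirg that share a seed.
miR-770-3p (Meg3): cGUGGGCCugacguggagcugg
miR-370-3p (Rian): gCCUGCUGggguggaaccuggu
miR-341-3p (Rian): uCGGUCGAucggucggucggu
miR-134-5p (Mirg): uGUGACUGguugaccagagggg
miR-410-3p (Mirg): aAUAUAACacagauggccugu
miR-453 (Mirg): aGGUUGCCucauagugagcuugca
miR-496a-5p (Mirg): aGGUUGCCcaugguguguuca
These microRNAs were not measured by these libraries. The files list 118 annotated genes from Dlk1 to Dio3, of which 94 are small RNA genes (67 microRNAs, 23 small nucleolar RNAs and 4 of other kinds). All 94 were listed at 0 in every library, and for 93 of them the authors' effective length was also 0, so the zeros carry no information on the small RNAs. Of the 24 longer genes, 15 had any count, and the 5 members were the only ones that passed the filter on low counts.

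The knockdown was present in every library labelled GSTM1 KD. At the basal level the Gstm1 counts were 676 and 626, against 8153 and 9644 with the control hairpin. In the stimulated state they were 527 and 405, against 4851 and 6492. The log2 difference was -3.33 in basal and -3.68 in stimulated cells (edgeR adjusted p = 0.0132 and 0.00981). Total expected counts ran from 17349676 to 34434633 per library, and 19434 to 21610 genes had a count. Summed over 12 astrocyte markers, including Gfap, Aqp4 and Slc1a3, the level was 3235 to 10654 CPM in the 8 libraries, and it was lower in replicate 1 than in replicate 2 of each group. Gjb6, which marks mature astrocytes, was at or near 0 throughout. Of the microglial markers, Aif1, P2ry12 and Cx3cr1 were at or near 0, and others are given below with the markers that moved with the knockdown.

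At the basal level the 3 non-coding RNAs of the domain had lower values in GSTM1 KD than in control KD astrocytes, a fall that passed the test for Meg3. The difference in Dlk1 was small, and Dio3 had higher values at low counts. Rian, the RNA by which the domain was picked, gave 3043 and 2312 counts with the control KD, and 721 and 578 counts with the GSTM1 KD. On the scale of counts relative to library size with edgeR's TMM factors (CPM), these were 88.2 ± 3.09 (SD, n = 2) and 29.9 ± 1.41, a log2 difference of -1.56 (SE 0.105), with all GSTM1 KD values below all control KD values, as for 31.2% of all genes tested. Meg3 gave 1141 and 663 counts with the control KD, and 193 and 230 counts with the GSTM1 KD, or 29.1 ± 4.48 and 9.90 ± 2.29 CPM. Its groups did not overlap either, and it was 2.95-fold lower in GSTM1 KD (log2 difference -1.56, SE 0.218; edgeR adjusted p = 0.0222). Over all 14899 genes tested 10.2% were called, 5.62% as lower and 4.6% as higher. Its call was lost without either GSTM1 KD library (adjusted p = 0.0999 to 0.101).

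Mirg was near the limit of what these libraries can count. It gave 24 and 25 counts with the control KD, and 9 and 6 counts with the GSTM1 KD, and it passed the filter through its control KD libraries alone. A gene that enters the test in this way had to differ, so its log2 difference of -1.24 (SE 0.443) is given as a description with no test. On the log2 TPM scale the difference was -0.61, and the authors' effective length of Mirg ran from 444 to 1975 bases between libraries. All GSTM1 KD values of Mirg were nonetheless below the control KD values in CPM, as for 31.2% of all genes.

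Dlk1, the protein-coding gene upstream of Meg3, gave 2289 and 1802 counts with the control KD, and 1343 and 1246 counts with the GSTM1 KD. In CPM these were 67.6 ± 4.06 and 60.0 ± 3.37, without overlap, which is again the pattern of 31.2% of all genes. The log2 difference was -0.17 (SE 0.107; edgeR adjusted p = 0.321), and an interval of 2 SE around it ran from -0.38 to 0.04. A fall of Dlk1 as large as that of Meg3 therefore lies outside the interval. Dio3, at the other end of the domain, gave 8 and 11 counts with the control KD, and 26 and 40 counts with the GSTM1 KD. It was higher in both GSTM1 KD libraries than in both control KD libraries (32.3% of all genes were), with 0.328 ± 0.144 against 1.56 ± 0.627 CPM. It passed the filter through its GSTM1 KD libraries, so its log2 difference of 2.26 (SE 0.522) is likewise a description with no test.

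**Figure D1:**
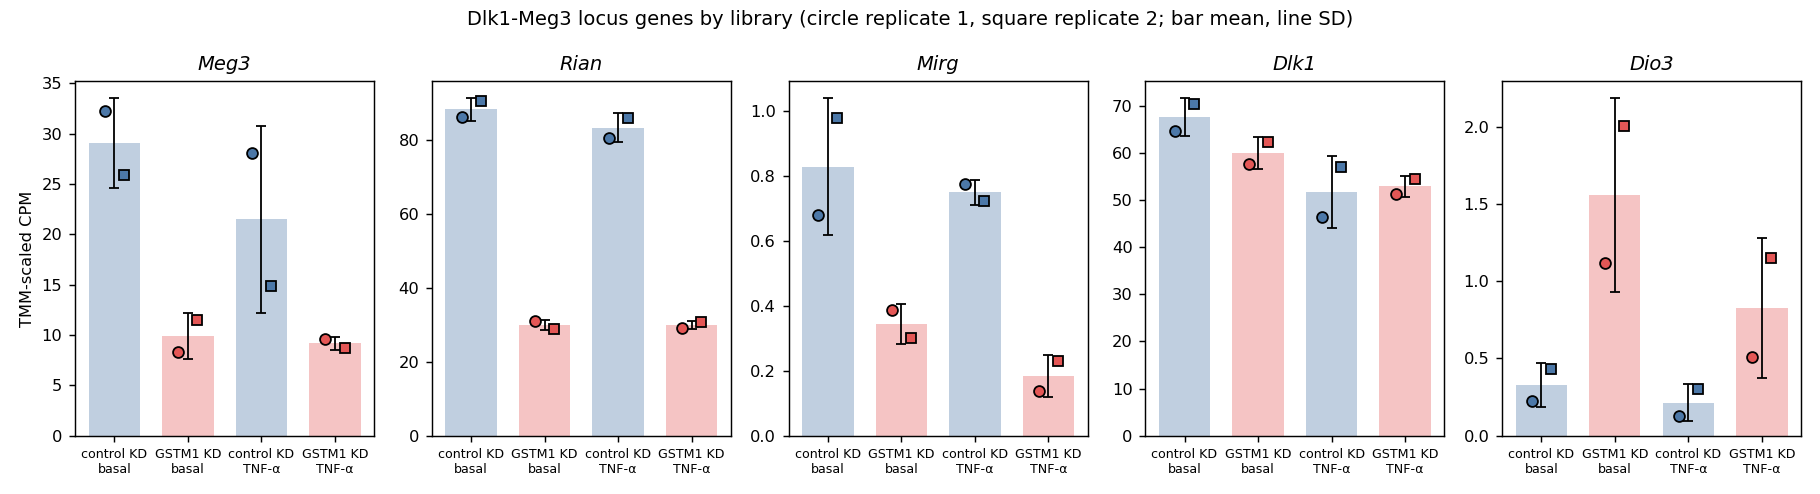
TMM-scaled counts relative to library size (CPM, vertical axes from 0, 1 scale per gene) of the 5 genes in each of the 8 libraries. Points are libraries, bars are group means and lines the SD (n = 2); Rian stood near 88.2 and 83.2 CPM in control KD and near 29.9 CPM in both GSTM1 KD groups, and Dlk1 between 51.6 and 67.6 CPM in all 4 groups.

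After TNF-α stimulation the 3 non-coding RNAs again had lower values in GSTM1 KD, and the value for Dlk1 was near 0. Rian gave 1869 and 1429 counts with the control KD, and 633 and 534 counts with the GSTM1 KD, or 83.2 ± 3.87 and 29.9 ± 1.02 CPM, a log2 difference of -1.50 (SE 0.0983). Meg3 gave 652 and 248 counts with the control KD, and 209 and 152 counts with the GSTM1 KD. Its replicates were far apart in control KD, with 28.1 and 14.9 CPM, against 9.65 and 8.75 CPM in GSTM1 KD, and the groups did not overlap (32% of all genes lay wholly below control KD). The log2 difference of -1.26 (SE 0.321) missed the threshold with edgeR (adjusted p = 0.0528, where 16.2% of 14593 genes were called, 8.92% as lower). It passed with DESeq2 (-1.25, adjusted p = 0.00183) and with edgeR when the replicate number was added as a block (-1.20, adjusted p = 0.0065). Without control KD TNF-α replicate 1 it was -0.72, and without replicate 2 it was -1.63, where it passed.

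Mirg gave 18 and 12 counts with the control KD, and 3 and 4 counts with the GSTM1 KD after TNF-α. The log2 difference was -2.05 (SE 0.499), and since Mirg again entered through control KD alone, it is given with no test. Dlk1 gave 1075 and 948 counts with the control KD, and 1112 and 947 counts with the GSTM1 KD, its groups overlapped, and the log2 difference was 0.01 (SE 0.128; edgeR adjusted p = 0.963) with a 2 SE interval from -0.25 to 0.27. Dio3 gave 3 and 5 counts with the control KD, and 11 and 20 counts with the GSTM1 KD. It did not pass the filter in these 4 libraries. Where all 8 libraries entered the fit it did, and its log2 difference was 1.96, also given with no test; that fit called 20.3% of all genes.

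TPM corrects for transcript length, so levels of different genes can be set side by side on it. In all 4 control KD libraries the order was Rian, Dlk1, Meg3, Mirg and Dio3. Rian had 101.2 and 107.7 TPM at the basal level and 96.0 and 102.6 TPM after TNF-α, Dlk1 58.6 to 86.3 TPM, and Meg3 13.4 to 35.2 TPM. In all 4 GSTM1 KD libraries Dlk1 stood first, at 65.1 to 77.3 TPM, ahead of Rian at 34.6 to 39.3 TPM and Meg3 at 8.47 to 13.9 TPM. The TPM ratio of Rian to Dlk1 was 1.25 to 1.64 in control KD and 0.50 to 0.60 in GSTM1 KD. At the low end Mirg had 1.31 to 2.29 TPM and Dio3 0.12 to 0.50 TPM in control KD. In 3 of the 4 GSTM1 KD libraries Dio3 stood above Mirg, GSTM1 KD basal replicate 1 being the exception, and the TPM of these 2 genes rest on 3 to 40 counts. The neighbours Rian, Dlk1 and Meg3 did not overlap within either knockdown group, whereas Mirg and Dio3 overlapped in GSTM1 KD.

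**Figure D2:**
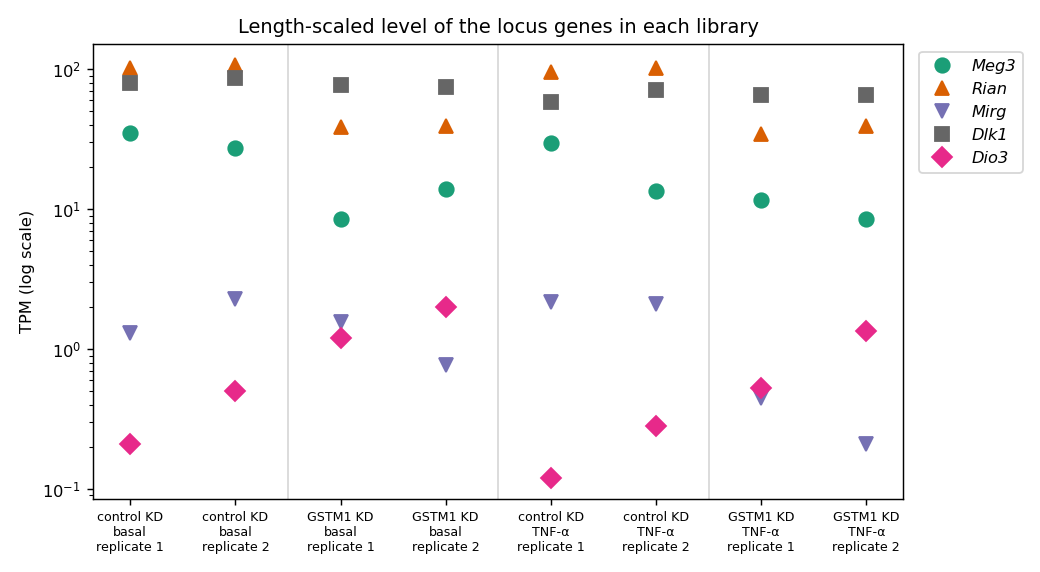
TPM (vertical axis, log scale) of the 5 genes in each of the 8 libraries (horizontal axis). Rian is the highest of the 5 in the 4 control KD libraries and lies below Dlk1 in the 4 GSTM1 KD libraries.

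Rian made up 73.5% and 78.4% of the summed TPM of Meg3, Rian and Mirg in control KD basal libraries and 79.5% and 72.8% in GSTM1 KD basal libraries. After TNF-α its share was 75.01% and 86.9% with the control KD, and 74.0% and 81.9% with the GSTM1 KD. The ranges of control KD and GSTM1 KD overlapped in both states. Mirg made up 0.951% and 1.67% of the sum with the control KD, and 3.19% and 1.43% with the GSTM1 KD, in basal cells. In stimulated cells its share was 1.70% and 1.78% against 0.963% and 0.437%, without overlap, on 3 and 4 counts in GSTM1 KD. The sum itself was 118.1 to 137.7 TPM in control KD and 46.7 to 54.0 TPM in GSTM1 KD. In RNA from a whole dish, fewer cells that transcribe these RNAs and less RNA per cell cannot be told apart.

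TNF-α itself changed neither Rian nor Meg3 nor Dlk1 past the threshold, in either knockdown group. The responses of Mirg and Dio3 are given with no test, since both passed the filter only through the libraries where they were high. In control KD the log2 responses were -0.08 (SE 0.0835) for Rian, -0.43 (SE 0.295) for Meg3, -0.13 (SE 0.376) for Mirg, -0.39 (SE 0.118) for Dlk1 and -0.63 (SE 0.756) for Dio3. The smallest edgeR adjusted p of the 3 tested genes was that of Dlk1, 0.189, and 2.63% of 15332 genes were called. Dlk1 was also the only 1 of the 3 with an unadjusted p below 0.05 in either knockdown group (0.0125, in control KD), and DESeq2 called none of them. In GSTM1 KD the responses were -0.00 (SE 0.0867) for Rian, -0.10 (SE 0.315) for Meg3, -0.92 (SE 0.522) for Mirg, -0.18 (SE 0.118) for Dlk1 and -0.93 (SE 0.557) for Dio3, with edgeR adjusted p from 0.762 to 1.00 for Rian, Meg3 and Dlk1, where 2.65% of genes were called. For Rian, 2 SE around the response spanned -0.25 to 0.08 in control KD and -0.17 to 0.17 in GSTM1 KD. Dlk1 fell by 0.39 with an edgeR adjusted p of 0.0284 when the replicate number was added as a block.

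The difference between the knockdown effects in the 2 states was also tested, as the interaction of knockdown and TNF-α. It was 0.33 (SE 0.431) for Meg3 and 0.21 (SE 0.166) for Dlk1 on the log2 scale, each with an edgeR adjusted p of 1.00. For Rian it was 0.08 (SE 0.120), for Mirg -0.79 (SE 0.641) and for Dio3 -0.30 (SE 0.995), given with no test. Over all 15332 genes edgeR called 0 (0%), with 295 at an unadjusted p below 0.05, and DESeq2 called 27. The knockdown effect on Meg3 was thus not shown to differ between the states.

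**Figure D3:**
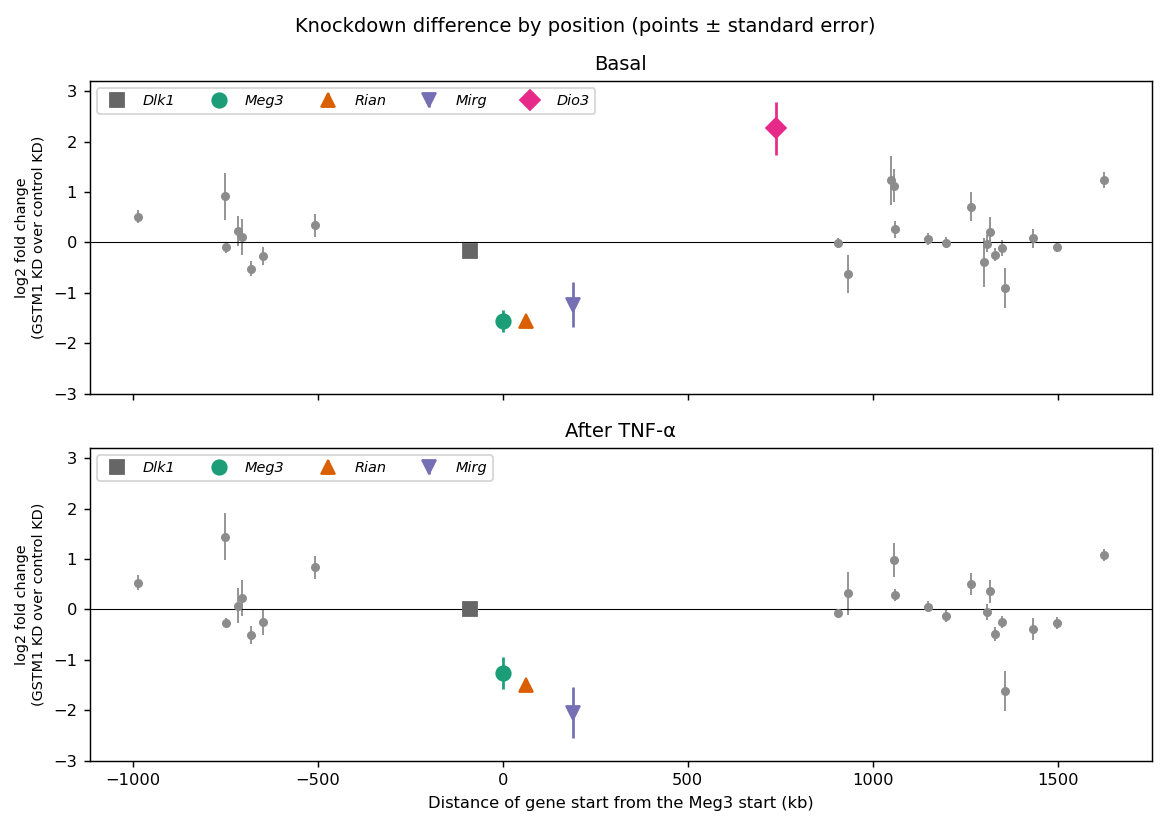
Log2 fold change of GSTM1 KD over control KD (vertical axis, ± SE) against the distance of each gene's start from that of Meg3 in kb (horizontal axis), at the basal level above and after TNF-α below. Coloured symbols are the members and grey points the tested genes within 1 Mb on either side that had a count in every library; Meg3 and Rian lie at -1.56 in the upper panel and Dlk1 at -0.17.

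The genes on both sides of the domain were compared in the same fits. Within 1 Mb outside Dlk1 and Dio3, 26 genes were tested at the basal level, of which edgeR called 0 lower and 1 higher, with 1 lower and 4 higher at an unadjusted p below 0.05 and 1 lower and 1 higher by DESeq2, where edgeR called 10.2% of all genes. Their median log2 difference was 0.03, beside -0.00 over all genes. After TNF-α, edgeR called 2 of 24 lower (0 by DESeq2) and 1 higher, where 16.2% of all genes were called. At an unadjusted p below 0.05, 5 were lower and 6 higher. The median was 0.01, beside -0.01 over all genes. The gene called higher in both states was Traf3, which encodes an adaptor of TNF receptor family signalling, with log2 differences of 1.24 (edgeR adjusted p = 0.0192) and 1.07 (adjusted p = 0.0116). The 2 genes called lower after TNF-α were the processed pseudogenes Gm48048, with 22 and 14 counts against 0 and 0, and Rps19-ps6, with 31 and 19 against 9 and 7. Both entered the test through control KD, so their calls support nothing. The nearest tested upstream neighbour, Begain, had 0.34 (adjusted p = 0.369) and 0.84 (adjusted p = 0.0636), and Wdr25 beyond it had -0.27 and -0.25 (adjusted p = 0.333 and 0.523).

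Other transcripts inside the domain were too low to test. Rtl1, a retrotransposon-derived gene of the paternal chromosome that lies opposite the microRNAs between Meg3 and Rian, had 1 to 9 counts per library. Dio3os, transcribed away from Dio3, had 0 to 8 counts in 7 libraries and 24 in GSTM1 KD TNF-α replicate 2. Gm26945, which overlaps Rian, had 0 to 3 counts, against 534 to 3043 for Rian. Gm26906, annotated on the reverse strand across the end of Meg3, was listed at 0 in every library.

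Imprinted genes of other domains were also compared. Of 56 such genes, 43 were tested at the basal level, and edgeR called 4 lower and 0 higher, with 6 lower and 7 higher at an unadjusted p below 0.05 and 5 lower and 1 higher by DESeq2. After TNF-α, 3 of 42 were lower and 3 higher, also by DESeq2, with 5 lower and 8 higher at an unadjusted p below 0.05. The edgeR calls in the 2 states are 9.30% and 14.3% of the list, beside 10.2% and 16.2% of all genes. The medians were -0.06 and 0.03, near those of all genes. Grb10, an adaptor that dampens insulin and growth factor signalling, was lower, with differences near those of Rian, at -1.65 (SE 0.214; edgeR adjusted p = 0.0195) in basal and -1.55 (SE 0.254; adjusted p = 0.0208) in stimulated cells. Plagl1, a zinc finger transcription factor also known as Zac1, had -1.09 (SE 0.167; adjusted p = 0.025) and -1.72 (SE 0.216; adjusted p = 0.0133), and it rose with TNF-α, by 2.15 in control KD and 1.54 in GSTM1 KD.

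Ube3a, a ubiquitin ligase, was lower in both states (-0.46 and -0.47; edgeR adjusted p = 0.0484 and 0.0423). Peg10, derived from a retrotransposon, was lower at the basal level (-0.63, adjusted p = 0.042). Its value after TNF-α was -0.00, but the interaction did not pass the test (adjusted p = 1.00). Peg3, a zinc finger gene, was higher after TNF-α (1.41, adjusted p = 0.0442) and had 1.15 (adjusted p = 0.0864) at the basal level. Igf2, H19 and Cdkn1c, growth regulators at other imprinted domains, had basal differences of -0.06, -0.90 and -0.10, none past the threshold (adjusted p = 0.171 or more).

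**Figure D4:**
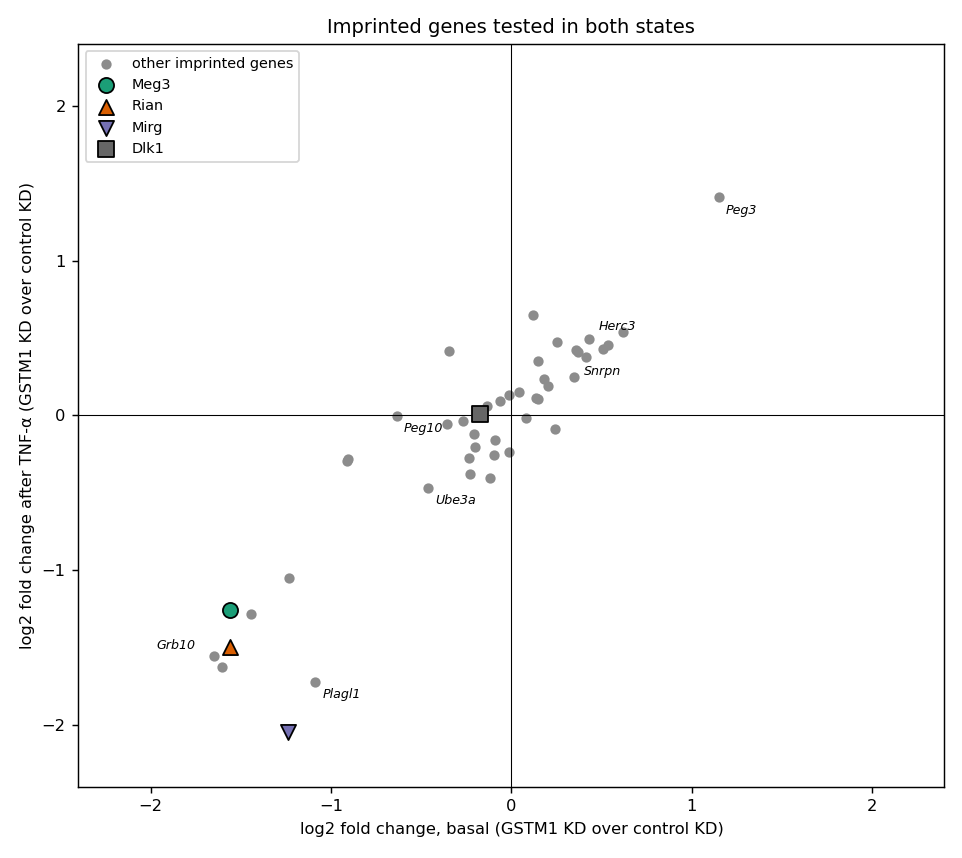
Log2 fold change of GSTM1 KD over control KD at the basal level (horizontal axis) and after TNF-α (vertical axis) for imprinted genes tested in both states. Large symbols are members of the domain and grey points imprinted genes elsewhere, with names for those called in either state; Grb10 and Plagl1 lie in the lower left with Meg3, Rian and Mirg, and Peg3 in the upper right.

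Among 25 genes of the imprinting and DNA methylation machinery, 22 were tested, and 1 was lower and 3 were higher at the basal level and 1 and 5 after TNF-α, the counts by DESeq2 being the same. These are 18.2% and 27.3% of the list, beside 10.2% and 16.2% of all genes. The medians of the list were -0.02 and -0.16. The lower gene in both states was Zfp57, a zinc finger protein that protects imprints by binding methylated control regions. Its counts were 131 and 56 with the control KD, against 16 and 15 with the GSTM1 KD, in basal cells, and 109 and 64 against 31 and 18 in stimulated cells. The groups did not overlap in either state, with GSTM1 KD below, as for 31.2% and 32% of all genes. The log2 differences were -2.04 (SE 0.405; edgeR adjusted p = 0.0385) and -1.81 (SE 0.325; adjusted p = 0.0256). Higher in both states were the de novo methyltransferase Dnmt3a (0.70 and 0.56), Tdg, a DNA glycosylase of active demethylation (0.82 and 0.66), and Jarid2, a subunit of Polycomb complexes (0.88 and 0.92). Tet2, which oxidises methylated cytosine, was higher after TNF-α (0.87, adjusted p = 0.025) and had 0.57 (adjusted p = 0.163) at the basal level. Trim28, the corepressor that Zfp57 recruits, had -0.25 and -0.22 (adjusted p = 0.23 and 0.299). DNA methylation was not measured in these samples.

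Dlk1 acts on Notch signalling, and of 33 Notch pathway genes 30 were tested. At the basal level 3 were lower and 4 higher, and after TNF-α 2 were lower and 7 higher, with medians of 0.10 in both. DESeq2 called 4 lower and 5 higher, then 4 and 7. The edgeR calls are 23.3% and 30.0% of the list, beside 10.2% and 16.2% of all genes. Dlk2, the closest relative of Dlk1, was higher where Dlk1 was not called, by 1.55 (SE 0.187; edgeR adjusted p = 0.0183) and 1.83 (SE 0.246; adjusted p = 0.0151). Rfng, a glycosyltransferase that modifies Notch receptors, was higher by 2.30 and 2.66, and Dner, a Notch-related transmembrane protein of neurons and glia, by 1.14 and 1.10. The ligand Dll1 was higher after TNF-α (1.71, adjusted p = 0.0276) and had 0.60 (adjusted p = 0.244) before it, and the ligand Jag1 was lower after TNF-α (-1.49, adjusted p = 0.0444) and had -1.20 (adjusted p = 0.0691) before it. Rbpj, the transcription factor of the pathway, was lower by -0.55 and -0.67. The target gene Hes1 was lower at the basal level (-0.76, adjusted p = 0.0398) and had -0.64 (adjusted p = 0.0796) after TNF-α, and Hey1, another target, was higher after TNF-α (0.72, adjusted p = 0.0189) and had 0.47 (adjusted p = 0.0698) before it.

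Dio3 acts on thyroid hormone, and of 21 genes that handle this hormone 18 were tested, with 1 lower and 2 higher in each state. These are 16.7% of the list, beside 10.2% and 16.2% of all genes. In each state DESeq2 called 2 lower and 6 higher, and 2 were lower and 9 higher at an unadjusted p below 0.05. The median log2 difference was 0.49 in basal and 0.52 in stimulated cells, above the median of all genes. Crym, which binds thyroid hormone in the cytosol, was lower (-1.17 and -1.24; edgeR adjusted p = 0.0377 and 0.0391). The receptor Thrb was higher after TNF-α (1.31, adjusted p = 0.0286) and had 0.75 (adjusted p = 0.069) before it. Dio2, the deiodinase that activates the hormone in astrocytes, had 0.65 and 1.03 (adjusted p = 0.151 and 0.0697).

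Further groups bear on what is known of Meg3. From a list of 25 other long non-coding RNAs, including Malat1, Neat1 and Gas5, 19 were tested. Of these, edgeR called 1 lower and 0 higher in basal cells and 0 in stimulated cells, where it called 10.2% and 16.2% of all genes. In each state 2 had an unadjusted p below 0.05, and DESeq2 called 2. The median log2 differences over the 19 RNAs were -0.31 and -0.04, beside -0.00 and -0.01 over all genes. The lower RNA was Gm26917 (-0.63, adjusted p = 0.0453). Malat1 had -0.33 and -0.04 and Neat1 -0.20 and 0.19, none of them past the threshold. Of 25 p53 pathway genes, a pathway to which Meg3 has been linked, 3 were lower and 1 higher at the basal level and 2 and 1 after TNF-α by edgeR, where 10.2% and 16.2% of all genes were called. The medians of this list were -0.21 and -0.17. DESeq2 called 7 lower and 1 higher in each state, and 10 were lower and 2 or 3 higher at an unadjusted p below 0.05. Among those called were Gdf15 (-1.73 and -1.97; edgeR adjusted p = 0.016 and 0.00981) and Sesn1 (0.88 and 0.93). Fas, a death receptor, was lower at the basal level (-1.10, adjusted p = 0.0282) and had -0.82 (adjusted p = 0.0525) after TNF-α. Of 20 genes of cAMP and CREB signalling, which acts through TGACGTCA, edgeR called 1 lower and 1 higher at the basal level and 2 and 2 after TNF-α, where 10.2% and 16.2% of all genes were called. The medians of this list were 0.20 and 0.18. DESeq2 called 2 lower and 5 higher, then 3 and 2, and at an unadjusted p below 0.05 there were 2 and 7, then 4 and 5. Creb1 had 0.14 and 0.18 (adjusted p = 0.512 and 0.216), and at the basal level Nr4a1, an immediate early gene, was lower (-1.17, adjusted p = 0.0412) and the adenylyl cyclase Adcy8 higher (0.93, adjusted p = 0.0296). After TNF-α the phosphodiesterase Pde4b was lower (-0.83, adjusted p = 0.0241), and Pde4d (0.94, adjusted p = 0.0272) and Nr4a2 (0.93, adjusted p = 0.0396) were higher.

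Across the 8 libraries, the genes whose log2(CPM + 1) was most like that of Rian, of 15332 genes, were Rab7, Flii, Gna12, Apba3 and Mfap1b, with Pearson r from 0.996 to 0.998. For Meg3 they were 9130221H12Rik, Agpat2, Nsun3, Guf1 and Chst12, with r from 0.979 to 0.986. Rian had r = 0.890 with Meg3, and 1417 genes, counting Rian itself, had a higher r with Rian. Its r was 0.942 with Mirg, 0.226 with Dlk1 and -0.808 with Dio3. These values are a description over 4 groups of 2 libraries, in which the libraries fall into 2 knockdown groups.

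Markers of other cell types moved with the knockdown groups. The sum over 9 pericyte and smooth muscle markers was 5134 to 6347 CPM in control KD and 2443 to 3338 CPM in GSTM1 KD, nearly all of it from Acta2 and Tagln, while Kcnj8, Abcc9 and Vtn, which define pericytes, were at or near 0. The pericyte markers Pdgfrb and Rgs5 went the other way, Pdgfrb with 0.46 in basal and 0.81 in stimulated cells (edgeR adjusted p = 0.184 and 0.0337) and Rgs5 with 1.64 and 1.55 (adjusted p = 0.1 and 0.0916). The sum over 12 fibroblast and meningeal markers was 2485 to 2898 CPM in control KD and 1868 to 2112 CPM in GSTM1 KD, mainly Fn1, with Slc6a13 at 0. Col1a2 was lower in both states (-1.13 and -0.99; edgeR adjusted p = 0.0352 and 0.025) and Foxc1 after TNF-α (-0.62, adjusted p = 0.0341; -0.43, adjusted p = 0.105 before it), and the medians of the list were -0.41 and -0.41. The sum over 8 endothelial markers was 20.2 to 28.9 CPM in control KD and 9.69 to 18.7 CPM in GSTM1 KD, with Cldn5 at 0. Its medians over 4 tested markers were -1.28 and -1.09. Esam gave 56 to 99 counts in control KD and 8 to 12 in GSTM1 KD, Cdh5 had -1.65 and -1.41 (adjusted p = 0.0954 and 0.121), and Kdr went the other way at 1.39 and 1.25 (adjusted p = 0.124 and 0.0644). Microglial markers also had lower values in GSTM1 KD, with a median log2 difference of -0.86 over 7 tested in basal and -0.66 over 6 in stimulated cells, and none passed the edgeR test (lowest adjusted p = 0.176 and 0.199). In basal cells Itgam gave 61 and 8 counts with the control KD, against 3 and 0 with the GSTM1 KD, Trem2 47 and 6 against 2 and 0, C1qa 78 and 15 against 13 and 4, and Csf1r 55 and 8 against 16 and 6. The high counts were those of control KD replicate 1. The sum over 8 markers of oligodendrocyte precursors was 595 to 784 CPM in control KD and 505 to 584 CPM in GSTM1 KD, mainly Olig1 and Olig2, of which Olig2 was lower in both states (-0.85 and -1.14; adjusted p = 0.0251 and 0.0101). The medians of that list were -0.04 and -0.10, Lhfpl3 (1.24 and 1.36), C1ql1 (0.46 and 0.53) and Cspg4 (0.32 and 0.24) had higher values, and the lineage markers Sox10 and Gpr17 were at or near 0. Of 9 ependymal and choroid plexus markers 6 were tested, with medians of 0.86 and 0.84. Of the 6, 1 was called higher in basal and 2 in stimulated cells, where 10.2% and 16.2% of all genes were called in either direction. Pifo had 1.15 and 1.18 (adjusted p = 0.124 and 0.0498), and Folr1, which entered the test through its GSTM1 KD libraries, gave 3 to 17 counts in control KD and 35 to 55 in GSTM1 KD, while Ttr and Tmem212 were at or near 0. Foxj1, the factor that defines ependymal cells, had 0.01 and 0.30 (adjusted p = 0.987 and 0.122). Cldn11 of the oligodendrocyte list gave 1 or 2 counts in control KD and 10 to 19 in GSTM1 KD, with Mog at or near 0. Prom1, a marker of neural stem cells, was higher (1.07 and 0.89; adjusted p = 0.0325 and 0.0161). The neuronal sum over 12 markers was 399 to 430 CPM in control KD and 429 to 506 CPM in GSTM1 KD, mainly Map2, Stmn2 and Tubb3, and Snap25, Dcx and Rbfox3 were at or near 0, while Nefm was lower (-1.64 and -1.45; adjusted p = 0.0382 and 0.0494). The astrocyte sum was 3235 and 7820 CPM with the control KD, against 6897 and 10654 CPM with the GSTM1 KD, in basal cells, and 3297 and 7892 against 7005 and 10352 CPM in stimulated cells. It was thus higher with the GSTM1 KD at each replicate number, mainly through Gfap and Atp1b2, and the groups overlapped. Of the 11 astrocyte markers tested, the only one called was S100b, which was lower (-1.44 and -1.71; edgeR adjusted p = 0.0269 and 0.0387), where 10.2% and 16.2% of all genes were called. The part of all these cells in the levels of Meg3, Rian and Mirg was not tested.

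**Figure D5:**
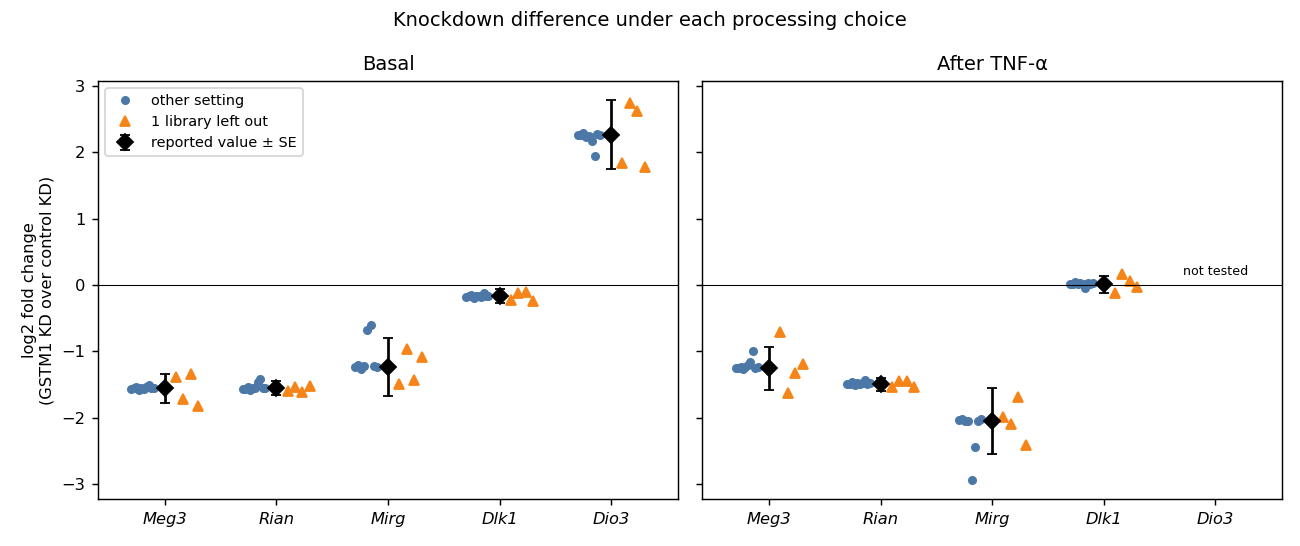
Log2 fold change of GSTM1 KD over control KD (vertical axis) for each member at the basal level (left) and after TNF-α (right). Black diamonds are the reported values ± SE, blue circles other processing choices and orange triangles fits with 1 library left out; Rian, Meg3 and Mirg stay below 0 in every fit shown and Dio3 above 0, while Dlk1 crosses 0 after TNF-α.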

How the data were processed

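Messenger RNA of 8 libraries was measured by strand-specific paired-end RNA-seq. The authors mapped reads to GRCm38 with STAR (version 2.5.4b) and ran RSEM (version 1.3.0) on the alignments; the annotation release, and whether counting used the strand, are not given in the sources used here, so overlapping genes are uncertain. The deposited expected counts are RSEM's estimated counts per gene, not normalized. The deposited TPM values are scaled by the authors to a common total and per transcript length. The deposited effective lengths, in bases, vary between libraries with the transcripts RSEM assigned.

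Counts were rounded before testing with edgeR (version 4.0.16, R version 4.3.3), which used TMM factors, filterByExpr and the quasi-likelihood test, with Benjamini-Hochberg adjustment over all genes tested at 0.05. Knockdown comparisons used the 4 libraries of a state, and TNF-α responses and the interaction all 8. The SE of an edgeR value is its absolute log2 difference divided by the square root of the F statistic of the quasi-likelihood test. The 2 SE intervals are therefore approximate. Coordinates came from GENCODE M21, in which 54079 of 54146 identifiers were found, and sequences from RefSeq (GRCm38.p6). All 5 members were found in these annotations. The alternatives were DESeq2 (version 1.42.0), limma (version 3.58.1) on log2(TPM + 0.1), other scaling, filters, a replicate block and leaving out each library. Scripts were tested on simulated data. An exact test of 2 against 2 libraries cannot go below 0.333 (two-sided). p-values measure the spread between cultures that the study calls biological replicates.

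Members and gene lists were chosen with earlier results of these data known. Genes named were the members, the 5 genes most like Rian and like Meg3, some genes of each list (called in a knockdown comparison or defining the list) and Gstm1. Gm48048, Rps19-ps6, Gm26906 and the single cell type markers were named after their values were seen. Some single genes of the lists are not reported in this text.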

Additional observations from a re-analysis of the deposited data

How the results depend on the processing

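The lower values of Rian, Meg3 and Mirg in GSTM1 KD kept their direction in both states under every alternative with a reported value. So did the higher value of Dio3 at the basal level. Rian was picked by this direction, and Mirg and Dio3 entered through 1 knockdown group, so for these 3 genes the kept direction is a description only. The calls were less stable than the directions. When a GSTM1 KD library was left out, edgeR called 1 to 3 genes in all in basal cells and 0 to 94 in stimulated cells, against 1524 and 2360 with 2 libraries, so the loss of a member's call there is shared by nearly all genes; a lone library is assumed to vary like the others.

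At the basal level Meg3 ranged from -1.82 to -1.34 and Dio3 from 1.78 to 2.74 over the fits without 1 library. Dio3 passed the threshold with DESeq2 (2.26), library size only (2.29), no filter on low counts (2.23), all 8 libraries (2.26) and the replicate block (2.24, adjusted p = 0.00201). Rian moved to -1.47 with effective lengths as offsets and to -1.41 with limma on log2(TPM + 0.1), and Mirg to -0.68 and -0.61. The same 2 settings moved Mirg the other way after TNF-α, to -2.94 and -2.44, its TNF-α response in GSTM1 KD to -1.93 and -1.54, and its difference in response to -2.22 and -1.82. After TNF-α, Meg3 passed with DESeq2 (-1.25), no filter (-1.26), all 8 libraries (-1.23) and the replicate block (-1.20, adjusted p = 0.0065), and ranged from -1.63 to -0.72 without 1 library. Mirg ranged from -2.41 to -1.69 there. Mirg and Dio3 entered the tests through 1 knockdown group, so passing or missing the threshold supports nothing for them. Dlk1 after TNF-α became -0.041 with effective lengths and ranged from -0.13 to 0.17 without 1 library. The cause of these changes was not tested.

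Values near 0 changed sign. In control KD the TNF-α response of Mirg became 0.30 with effective lengths, 0.28 with limma, and -0.38 to 0.15 without 1 library. In GSTM1 KD the response of Rian was 8.9e-05 with only the 4 libraries compared and -0.045 to 0.053 without 1 library, and that of Meg3 was -0.32 to 0.15. The difference in response ranged from -0.066 to 0.87 for Meg3 and from -0.98 to 0.33 for Dio3 without 1 library, and was 0.00193 for Dio3 with effective lengths. Some TNF-α responses kept their sign without 1 library but moved in size. In control KD that of Meg3 ran from -0.97 to -0.04 and that of Dio3 from -1.26 to -0.09. In GSTM1 KD that of Mirg ran from -1.28 to -0.58 and that of Dio3 from -1.60 to -0.43.

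The labels number the replicates 1 and 2 in each group without saying what a number marks. Deviations of same-numbered libraries correlated by 0.165 to 0.575 over the 6 pairs of groups. With the replicate block edgeR called 4712 genes in basal and 4302 in stimulated cells, and the TNF-α response of Dlk1 in control KD was -0.39 (adjusted p = 0.0284). Counts of calls by other settings ran from 715 (limma) to 3957 (no filter) in basal cells and from 1231 to 4540 in stimulated cells. With control KD replicate 2 left out the counts were 5256 and 5028. The TNF-α response gave 403 and 406 calls in control KD and GSTM1 KD, 988 and 808 with the block, 1255 and 1050 without the filter, and 72 and 691 on only the 4 libraries compared. DESeq2 gave no adjusted p for some low-count fits of Mirg and Dio3. With 3 to 40 counts per library for Mirg and Dio3, depth limits what can be said of them.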
